A study of Homo sapiens with 9 samples.

Results

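CD70, found by its symbol and Ensembl identifier, is 1 gene of 36601 in the files and of 18069 with enough counts to be tested. It was chosen by its measured level, its share of positive cells and its burst parameters across lengths of the RNA polymerase II tail. The cells were U2OS, a human osteosarcoma line, in which RPB1, the largest subunit of the polymerase, carried HaloTag, a protein that couples to chemical dyes, or Dendra2, a photoconvertible fluorescent protein. The C-terminal domain (CTD), the repeated tail on which RNA-processing factors assemble, held 25, 52 or 70 repeats, 52 being the human number. The genotypes were HaloTag-RPB1-25R, HaloTag-RPB1-52R, HaloTag-RPB1-70R, Dendra2-RPB1-25R, Dendra2-RPB1-52R and Dendra2-RPB1-70R. Every group was kept for 6 days in 1 µg per ml of α-amanitin, and none of the cells analysed here were untagged or untreated. The drug can block the polymerase, but how far it acted on the tagged subunit was not tested. Each genotype is 1 library of single cells, and the sources used here do not say whether a line was 1 clone. The HaloTag libraries were sequenced in an earlier campaign than the Dendra2 libraries, and so tag cannot be told apart from campaign. With 1 library each, p-values measure no spread within a genotype. They rest on the spread between libraries, which edgeR estimates in part from other genes.

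CD70 is a membrane-bound ligand of the tumour necrosis factor (TNF) family. Its receptor, CD27, sits on T, B and natural killer cells and signals through TRAF2 and TRAF5 to NF-κB. In healthy tissue CD70 appears briefly on activated lymphocytes and dendritic cells, whereas several tumour types carry it without immune activation. The gene (ENSG00000125726) lies on the minus strand of GRCh38 at chr19:6583183-6604103, with 3 annotated transcripts, and counts at the 3′ end do not tell these apart.

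The 6 libraries held between 2718 and 4677 kept cells and between 52553686 and 58442223 unique molecular identifiers (UMIs, 1 per captured transcript). Median UMIs per cell were between 10812 and 18739, and a pair of libraries shared at most 7 cell barcodes. The labels call the cells epithelial. Levels are in CPM, the UMIs of a gene scaled to a common library total. KRT18 (699 to 1266 CPM) and KRT8 (144 to 551 CPM) were present, but CDH1 stayed at or below 0.428 CPM, EPCAM ranged from 0.221 to 7.65 CPM and 8 of 16 epithelial markers were under 1 CPM in every library. Of 15 osteoblast and mesenchymal markers 4 were at 10 CPM or more in every library, led by VIM at 2554 to 3784 CPM, and 4 were under 1 CPM in every library (COL1A2, SP7, IBSP and DCN). Of 18 leukocyte markers 13 were under 1 CPM in every library. The summed level of that list was 22.8 CPM in HaloTag 25R and 5.39 to 8.49 CPM in the other 5 libraries. CD3D gave most of the HaloTag 25R sum, at 17.1 CPM there. Its part in the CD70 level was not tested.

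CD70 was highest with the shortest tail and lowest with the human length under both tags. In HaloTag cells CD70 stood at 275 CPM with 25R (16266 UMIs), 85.2 CPM with 52R (4831 UMIs) and 127 CPM with 70R (7078 UMIs). In Dendra2 cells it stood at 150.5 CPM with 25R (7487 UMIs), 44.6 CPM with 52R (2282 UMIs) and 72.2 CPM with 70R (3849 UMIs). From high to low the order was HaloTag 25R, Dendra2 25R, HaloTag 70R, HaloTag 52R, Dendra2 70R and Dendra2 52R. No neighbours in that order had overlapping exact 95% Poisson intervals. Those intervals cover counting error only, since a genotype has no second library.

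**Figure D1:**
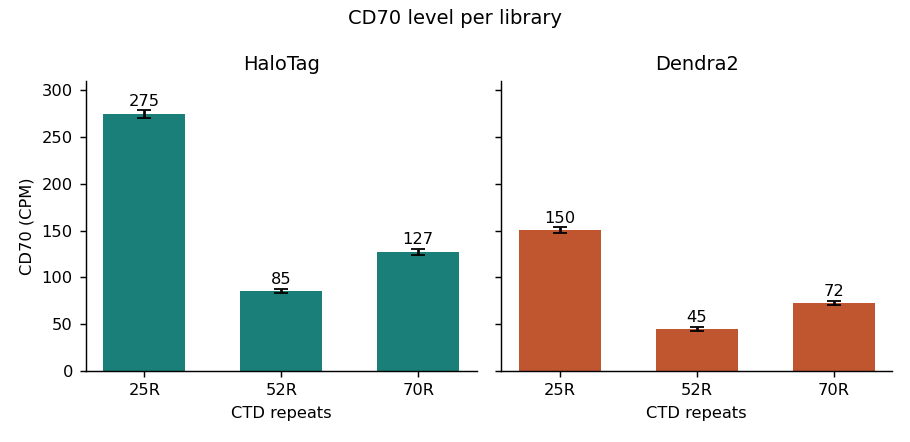
CD70 level (CPM) in each library by CTD repeats, HaloTag in the left panel and Dendra2 in the right. Bars are single libraries and whiskers are exact 95% Poisson intervals (counting error only). The 25R bar is the tallest and the 52R bar the shortest in each panel.

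The ratios were close under the 2 tags. CD70 was 3.22-fold higher in HaloTag 25R than in HaloTag 52R (log2 1.69, counting interval 1.64 to 1.74) and 3.38-fold higher in Dendra2 25R than in Dendra2 52R (log2 1.76, interval 1.69 to 1.82). With the longest tail the difference was smaller: 1.49-fold for HaloTag 70R over HaloTag 52R (log2 0.58) and 1.62-fold for Dendra2 70R over Dendra2 52R (log2 0.70). The gene was chosen for this pattern, so these ratios are a description with no test. As background, 7.15% of tested genes were at least 2-fold higher in HaloTag 25R than in HaloTag 52R and 3.33% in Dendra2 25R than in Dendra2 52R. A larger 25R over 52R ratio than that of CD70 was found for 2.55% of genes in HaloTag and 0.764% in Dendra2, and a larger 70R over 52R ratio for 7.75% and 5.66%. For 1.46% of genes the 25R level was at least 2-fold the 52R level under both tags, and 4.99% had the order 25R over 70R over 52R under both. CD70 was 1 of the 8 genes (0.0443%) that edgeR called between 25R and 52R over all 18069 genes, 4 of them higher (0.0221%), a call on the contrast that chose it. DESeq2 called 1.71% of genes there. With library totals in place of trimmed-mean factors the HaloTag 25R to 52R log2 ratio was 1.63, just below its counting interval of 1.64 to 1.74.

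Tag was a separate axis. HaloTag cells had 275, 85.2 and 127 CPM at 25R, 52R and 70R, against 150.5, 44.6 and 72.2 CPM in Dendra2 cells at the same lengths. CD70 was therefore higher in HaloTag cells at each length, by 1.83, 1.91 and 1.76-fold, although the ranges of the tags overlapped. In the fit of tag plus CTD length the HaloTag over Dendra2 log2 change was 0.87 ± 0.12 (SE, 3 libraries against 3), with an adjusted p of 0.0589 by edgeR's quasi-likelihood test. That missed the 0.05 threshold, which 0.327% of genes passed (0.155% higher and 0.172% lower in HaloTag), while 19.6% had an unadjusted p under 0.05. The call depends on the processing: the adjusted p was 0.0347 with library totals and 4.52e-06 with DESeq2, which called 3.85% of genes, and between 0.0673 and 0.320 when 1 library was left out. HaloTag was higher at all 3 lengths for 23.7% of tested genes, so the shared direction alone is common.

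The share of cells with a CD70 UMI followed the level, as a share at a fixed depth does. To set libraries of unlike depth side by side, every cell was thinned to 5000 UMIs, which left out between 34 and 217 shallower cells per library. A cell with no UMI at this depth may still hold the transcript. At least 1 CD70 UMI then appeared in 67.8% of HaloTag 25R cells (exact 95% interval 66.2 to 69.3%), 29.7% of HaloTag 52R cells (28.2 to 31.2%) and 38.1% of HaloTag 70R cells (36.7 to 39.6%). In Dendra2 cells the shares were 43.3% with 25R (41.6 to 45.1%), 16.2% with 52R (14.8 to 17.6%) and 25.2% with 70R (23.6 to 26.9%). Without thinning they were 90.3%, 51.1% and 57.6% for HaloTag 25R, 52R and 70R, and 71.7%, 41.9% and 57.4% for Dendra2 25R, 52R and 70R. Unthinned, HaloTag 70R and Dendra2 70R had almost the same share at median depths of 10812 and 18739 UMIs, while the thinned shares differed. No cell type lacking CD70 was present, so the share that free RNA would give was not measured.

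Cells rich in CD70 followed the same order of lengths under each tag. At least 5 CD70 UMIs of 5000 were found in 4.49% of HaloTag 25R cells (154 cells), 1.04% of HaloTag 52R cells and 1.46% of HaloTag 70R cells. The same mark was reached by 1.26% of Dendra2 25R cells, 0.111% of Dendra2 52R cells (3 cells) and 0.338% of Dendra2 70R cells. CD70 was spread unevenly among cells of 1 library. Its variance over its mean in thinned cells (1 for a Poisson count) was 1.63, 2.07 and 1.91 across HaloTag 25R, 52R and 70R, and 1.68, 1.49 and 1.55 across Dendra2 25R, 52R and 70R. These values exceeded those of 96.2% to 98.0% of genes whose mean was 0.1 UMIs or more, a group with a median between 1.04 and 1.05. Those genes were not matched to CD70 in mean level, and the part of level in this rank was not tested.

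**Figure D2:**
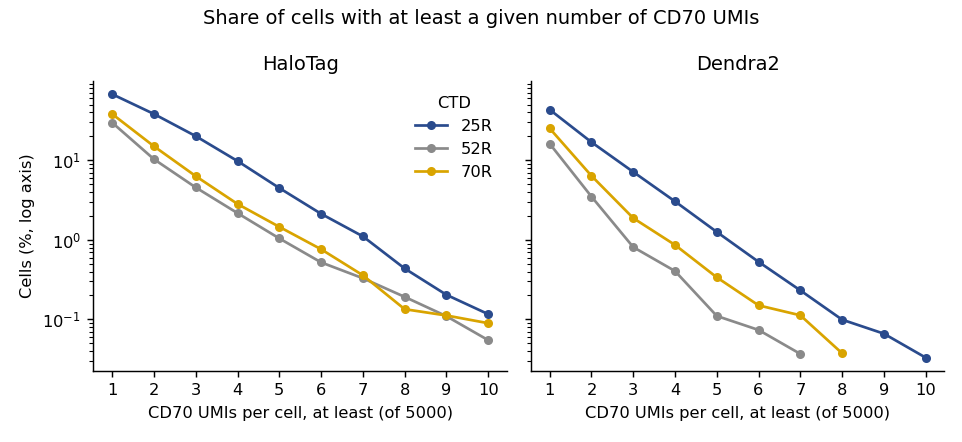
Share of cells (percent, log axis) with at least the number of CD70 UMIs on the x axis, out of 5000 UMIs per cell, HaloTag left and Dendra2 right, 1 line per CTD length. The last point counts cells with 10 or more, and no point is drawn where no cell reached the number. The 25R line lies above the 52R line at every number under both tags.

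Transcription can change by how often a gene fires or by how much each firing gives, and the authors' deposited table holds a beta-Poisson fit with a parameter K, read here as the burst frequency, which the file headers do not define. The CD70 mean per cell in the authors' deposited table, 4.67 in HaloTag 25R and 0.835 in Dendra2 52R for example, is close to the unscaled UMIs per kept cell (4.67 and 0.831), so depth moves it. For CD70 the authors' deposited table gave a K of 2.06 (limits 1.92 to 2.21) in HaloTag 25R, 0.625 (0.575 to 0.679) in HaloTag 52R and 0.797 (0.740 to 0.859) in HaloTag 70R. For Dendra2 the authors' deposited table gave a K of 1.04 (0.961 to 1.13) with 25R, 0.642 (0.570 to 0.724) with 52R and 0.821 (0.744 to 0.907) with 70R. HaloTag 25R had the highest K, and neither its limits nor those of Dendra2 25R overlapped the limits of any other library. The limits of HaloTag 52R and Dendra2 52R overlapped, as did those of the 70R pair. The mean divided by K, read here as a burst size, was 2.27, 2.09 and 1.90 UMIs across HaloTag 25R, 52R and 70R in the authors' deposited table. The corresponding sizes for Dendra2 25R, 52R and 70R in the authors' deposited table were 2.32, 1.30 and 1.73.

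The split of the 25R to 52R difference thus differed by tag in these single fits, which were not scaled for depth. Median UMIs per cell were 16020 in HaloTag 25R and 13567 in HaloTag 52R, and 15770 in Dendra2 25R and 18256 in Dendra2 52R. In thinned cells the variance over the mean was 1.63 in HaloTag 25R and 2.07 in HaloTag 52R, against 1.68 and 1.49 in Dendra2. Whether the split holds at equal depth was not tested. In the authors' deposited table HaloTag 25R exceeded HaloTag 52R by 1.72 on the log2 scale in K and by 0.12 in burst size. Dendra2 25R exceeded Dendra2 52R by 0.70 in log2 K and by 0.83 in log2 burst size in the authors' deposited table. Over the 3188 genes with a mean of at least 0.5 in every library, the median log2 K difference was 0.03 in HaloTag and -0.30 in Dendra2 in the authors' deposited table. The median log2 difference in burst size over those genes was 0.14 in HaloTag and 0.12 in Dendra2 in the authors' deposited table, so that of CD70 in HaloTag was close to the median gene. In HaloTag 0.0627% of those genes and in Dendra2 0.314% had a larger log2 K difference than CD70 in the authors' deposited table. The gene was chosen in part by its burst parameters across CTD lengths, so these differences and shares are a description with no test. The difference between tags was not tested.

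**Figure D3:**
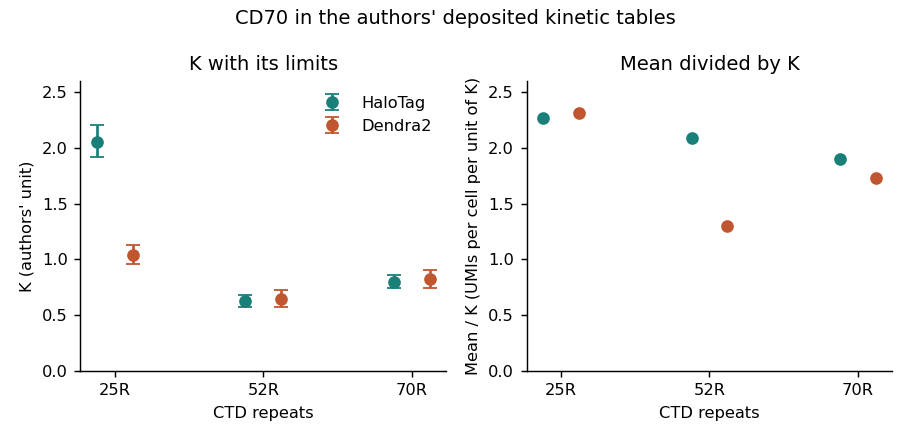
CD70 in the authors' deposited table by CTD repeats: left, K in the authors' unit with its lower and upper limits. Right, mean divided by K (UMIs per cell per unit of K, without limits). HaloTag 25R has the highest K at 2.06, and Dendra2 52R the lowest burst size at 1.30.

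Around CD70 on chromosome 19, GENCODE lists 34 other genes within 250 kb, of which 25 were in the files and 15 had enough counts for a test. None was called between CTD lengths or between tags, where 0% to 0.327% of all genes were called. Only TNFSF9 had the order 25R over 70R over 52R under both tags, an order that 4.99% of all genes had. TNFSF9, which encodes the 4-1BB ligand, another T cell costimulator, is the nearest tested gene, 47.3 kb away at chr19:6531026-6535924 on the plus strand. TNFSF9 had 34.1, 25.1 and 32.2 CPM across HaloTag 25R, 52R and 70R, and 22.3, 10.2 and 17.6 CPM across Dendra2 25R, 52R and 70R. Its steps were smaller than those of CD70: the 25R over 52R log2 change was 0.78 ± 0.21 (SE, 2 libraries against 2) with an adjusted p of 0.265 by edgeR. TNFSF14, the third TNF ligand gene of this stretch (chr19:6661253-6670588), had between 0 and 4 UMIs per library. GTF2F1, a subunit of the general factor TFIIF, had 52.7, 69.1 and 83.1 CPM across HaloTag 25R, 52R and 70R, and 67.1, 66.6 and 60.4 CPM across Dendra2 25R, 52R and 70R. KHSRP, an RNA-binding protein, had 49.1, 41.9 and 59.9 CPM across HaloTag 25R, 52R and 70R, and 53.9, 51.7 and 57.1 CPM across Dendra2 25R, 52R and 70R.

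Few TNF ligands were detected above 1 CPM. Of 17 other ligand genes 10 were under 1 CPM in every library, CD40LG, TNFSF8 and TNFSF11 had no UMI, and 6 could be tested. LTB, a subunit of lymphotoxin, was lowest where CD70 was highest: 1.47, 7.75 and 2.86 CPM across HaloTag 25R, 52R and 70R, and 1.31, 4.49 and 2.40 CPM across Dendra2 25R, 52R and 70R. It was named after its values were seen. CD27, the receptor, had 1 UMI each in Dendra2 52R and Dendra2 70R and none in the other 4 libraries, where a count of 0 allows at most 0.0571 CPM (3 counts). Of 18 tested TNF receptors none was called between CTD lengths, where 0% to 0.0443% of all genes were. FAS, a death receptor, had 46.7, 15.5 and 19.7 CPM across HaloTag 25R, 52R and 70R, and 27.6, 15.7 and 20.4 CPM across Dendra2 25R, 52R and 70R, a 25R over 52R log2 change of 1.22 ± 0.24 (edgeR adjusted p 0.203). Between tags TNFRSF11B, the decoy receptor osteoprotegerin, was called higher in HaloTag, at 37.6, 70.7 and 51.4 CPM across HaloTag 25R, 52R and 70R, against 9.67, 9.38 and 11.1 CPM across Dendra2 25R, 52R and 70R (log2 2.36 ± 0.21, edgeR adjusted p 0.0173). The call was lost without any 1 of HaloTag 52R, HaloTag 70R, Dendra2 52R or Dendra2 70R, as was that of FN1, which encodes the matrix protein fibronectin and was the other listed gene called between tags.

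Downstream of CD27, 0 of 23 tested genes of the CD27 and NF-κB pathway were called in any comparison of CTD lengths or tags. In those comparisons 0% to 0.327% of all genes were called, so 0 of 23 is near that share. The median 25R over 52R log2 change of the 23 genes was 0.10, against 0.01 over all genes. BIRC3, an inhibitor of apoptosis and an NF-κB target, had 27.8, 11.8 and 5.79 CPM across HaloTag 25R, 52R and 70R and 31.6, 11.3 and 13.3 CPM across Dendra2 25R, 52R and 70R. SIVA1, a proapoptotic protein that binds the CD27 tail, changed by -0.73 ± 0.20 on the log2 scale in 25R over 52R (edgeR adjusted p 0.266).

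Genes that p53 activates leaned the same way as CD70 over CTD lengths. None of the 26 tested p53 targets was called in 25R over 52R, where 0.0443% of all genes were. Of the 26, 24 lay above 0, with a median log2 change of 0.63. Under both tags 21 of the 26 were higher in 25R than in 52R, against 32.2% of all genes, and 7 had the full order 25R over 70R over 52R under both, against 4.99%. Their summed level was 3636, 2393 and 3028 CPM across HaloTag 25R, 52R and 70R, and 3403, 2823 and 3050.1 CPM across Dendra2 25R, 52R and 70R. That is the order of CD70 under each tag. GDF15, a stress cytokine, had 83.4, 13.4 and 10.2 CPM across HaloTag 25R, 52R and 70R, and 7.34, 2.70 and 14.6 CPM across Dendra2 25R, 52R and 70R. ZMAT3, an RNA-binding p53 target, had 123, 57.9 and 61.2 CPM across HaloTag 25R, 52R and 70R, and 55.2, 34.5 and 45.7 CPM across Dendra2 25R, 52R and 70R. Of 43 S phase genes 38 and of 54 G2/M genes 38 lay below 0 in 25R over 52R, with median log2 changes of -0.15 and -0.12 and none called. Of 9 tested epithelial markers 8 lay below 0 in 25R over 52R, with a median of -0.86 and none called.

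Over all 15 lists, 0 of 297 tested members were called between 25R and 52R, between 70R and 52R, or between 70R and 25R by edgeR, where the shares of all genes called were 0.0443%, 0% and 0%. Without adjustment 12.7%, 4.65% and 12.2% of all genes had a p under 0.05. DESeq2, run without the filter on low counts, called 20, 2 and 10 of 344 listed genes. It called 1.71%, 0.215% and 1.59% of all 29744 genes there. Leaving out Dendra2 25R raised the calls among listed genes and among all genes in the comparisons with 25R. As 1 library is then left at 25R, that rise was not read as a result about the lists.

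Genes whose levels over the 6 libraries were most like those of CD70 were found by Pearson's r of log2 CPM among 8182 genes with a mean of at least 10 CPM. EDA2R, a TNF receptor and p53 target, was the closest (r = 0.983), at 21.7, 10.9 and 13.0 CPM across HaloTag 25R, 52R and 70R and 13.3, 8.05 and 10.4 CPM across Dendra2 25R, 52R and 70R. EIF3A, a translation initiation factor (r = 0.979), and HDGFL3 (r = 0.977) followed with far smaller ranges, 310.1 to 399 CPM and 77.9 to 90.2 CPM. MANCR, a long noncoding RNA (r = 0.976), had the steeper course: 93.8, 9.99 and 13.9 CPM across HaloTag 25R, 52R and 70R, and 15.9, 2.23 and 3.88 CPM across Dendra2 25R, 52R and 70R. MORC4 completed the 5 (r = 0.974). Among the most opposed were GNAI2, a G protein subunit (r = -0.988), GLI2, a Hedgehog transcription factor (r = -0.986), RNF220 (r = -0.984) and MEIS3 (r = -0.983). With 6 points that share libraries such values describe these samples only: 114 genes had an r of at least 0.9 and 122 an r of -0.9 or less.

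Within each library, CD70 was unevenly spread over the cell cycle. Cells were placed in G1, S or G2/M by the scores of S and G2/M genes, and between 6.86% and 9.03% of cells lay within 0.05 of the G1 limit. In S cells CD70 stood at 231, 81.0 and 106 CPM across HaloTag 25R, 52R and 70R and 130, 38.8 and 60.3 CPM across Dendra2 25R, 52R and 70R. G1 cells had 369, 145 and 188 CPM across HaloTag 25R, 52R and 70R and 209, 82.1 and 101 CPM across Dendra2 25R, 52R and 70R. The S level was below the G1 level in 6 of 6 libraries, with a mean log2 difference of -0.81 ± 0.15 (SD, n = 6). G2/M cells were also below G1 cells in 6 of 6, by -0.86 ± 0.30 on the log2 scale (SD, n = 6). For each the exact two-sided sign-flip permutation p was 0.03125, the smallest that 6 libraries allow. Adjusted over 8 contrasts it was 0.0625, above the threshold.

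CD70 also went with p53 target expression. In the top 25% of cells by p53 target score it stood at 360.4, 161 and 209 CPM across HaloTag 25R, 52R and 70R, and 189, 68.4 and 97.7 CPM across Dendra2 25R, 52R and 70R. In the bottom 25% it stood at 210.3, 53.8 and 78.0 CPM across HaloTag 25R, 52R and 70R, and 113, 25.4 and 50.8 CPM across Dendra2 25R, 52R and 70R. The difference was 1.15 ± 0.37 on the log2 scale (SD, n = 6), higher in 6 of 6 libraries (exact sign-flip permutation p 0.03125, adjusted 0.0625). It was present inside each phase: the top 25% exceeded the bottom 25% in 6 of 6 libraries in G1 (mean log2 0.92 ± 0.41, SD), in S (0.84 ± 0.32) and in G2/M (0.88 ± 0.27). That split by phase was added after the data were seen and has no test.

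**Figure D4:**
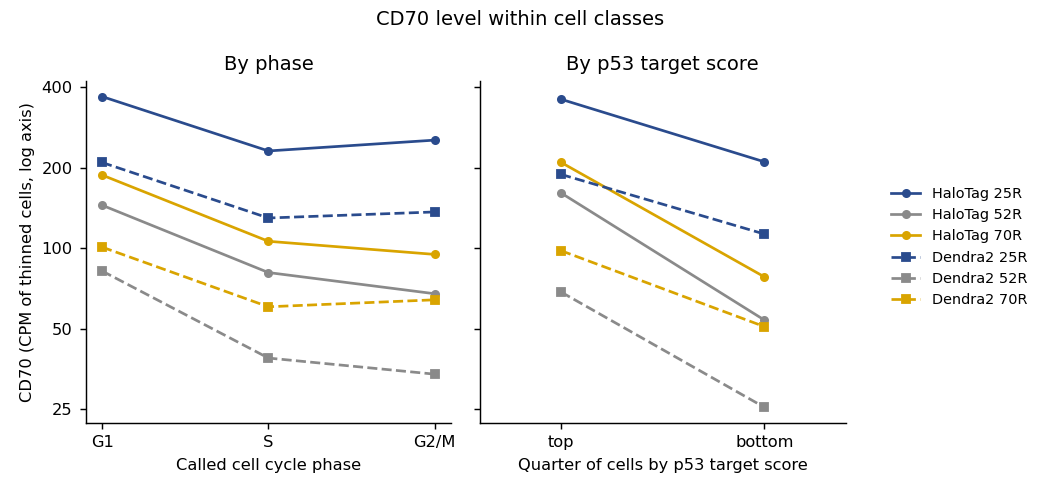
CD70 level (CPM of cells thinned to 5000 UMIs, log axis) in each of the 6 libraries, by called cell cycle phase (left) and by top and bottom 25% of cells by p53 target score (right). Each line is 1 library, solid for HaloTag and dashed for Dendra2. Every line is lower in S than in G1, and higher in the top than in the bottom class.

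Other ways to split the cells gave smaller differences. Cells in the top 25% by total UMIs had less CD70 per UMI than those in the bottom 25% in 6 of 6 libraries (log2 -0.43 ± 0.25, exact permutation p 0.03125, adjusted 0.0625). By immediate early score the top 25% was higher in 5 of 6 libraries (0.23 ± 0.19, adjusted exact p 0.1). By contractile score the difference was 0.08 ± 0.19 (adjusted exact p 0.321) and by mitochondrial share -0.02 ± 0.21 (adjusted exact p 0.781). Cells with a UMI of the tag sequence, which marks only part of the cells that carry it, differed from those without by -0.26 ± 0.36 (adjusted exact p 0.25).

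G1 shares moved with the tag, at 35.0%, 35.3% and 36.1% across HaloTag 25R, 52R and 70R, against 14.7%, 14.4% and 18.4% across Dendra2 25R, 52R and 70R. Folds in this paragraph are of thinned cells without trimmed-mean factors, unlike the tag folds given above. Over all thinned cells the mean was 1.45, 0.491 and 0.652 CD70 UMIs per cell across HaloTag 25R, 52R and 70R. The Dendra2 means were 0.727, 0.211 and 0.350 at the same lengths. How far the phase shares enter the tag difference was not tested. The HaloTag excess of CD70 was 1.76 to 1.86-fold within G1, 1.76 to 2.09-fold within S and 1.48 to 2.00-fold within G2/M over the 3 lengths. The 25R excess over 52R likewise appeared in each of 13 cell classes under both tags, from 2.24 to 3.91-fold in HaloTag and from 2.55 to 4.45-fold in Dendra2. In both it was largest in the bottom 25% by p53 target score. The 70R excess over 52R ranged from 1.04 to 1.54-fold in HaloTag and from 1.23 to 2.01-fold in Dendra2. These classes are overlapping parts of the libraries on which the gene was chosen. Their ratios between CTD lengths are therefore a description with no test.

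To see which genes go with CD70 from cell to cell, cells with at least 1 CD70 UMI were set against cells with none, after thinning, as 2 sums per library with the library as a block. CD70 itself was left out. Of 13721 genes 1567 were called (11.4%), 909 higher (6.62%) and 658 lower (4.80%) in cells with CD70 UMIs, and 1036 of them had the same direction in all 6 libraries. With library totals in place of trimmed-mean factors 1632 were called, 627 higher and 1005 lower, as the median of all genes shifted to -0.02 against 0.00 on the log2 scale. With cells thinned to 8000 UMIs 1661 genes were called, and 1052 of these were among the 1567. Leaving out HaloTag 70R left 988 calls, and DESeq2 called 671 of 27366 genes (2.45%). Without adjustment 22.8% of genes had a p under 0.05. Most changes were small: 90 called genes passed 1.5-fold and 7 passed 2-fold.

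The 12 named genes that rose, with a mean of 20 CPM or more, included secreted proteins, noncoding RNAs and the neighbouring TNF ligand. IGFL2-AS1, a noncoding RNA antisense to a growth factor-like gene, had 234, 137 and 180 CPM in cells with CD70 UMIs from HaloTag 25R, 52R and 70R, against 102, 62.5 and 79.6 CPM in cells without. Across Dendra2 25R, 52R and 70R it had 71.3, 71.4 and 39.2 CPM in cells with CD70 UMIs, against 37.7, 25.5 and 14.9 CPM in cells without. Its log2 difference was 1.18 ± 0.04 (edgeR adjusted p 9.43e-48), and the ranges over libraries overlapped although every pair went the same way. Over libraries that difference ran from 0.92 to 1.48. Because edgeR pools part of the spread over genes, SEs and p-values of this comparison do not measure a gene's own spread alone. TNFSF9 had 42.3, 42.5 and 47.2 CPM in cells with CD70 UMIs from HaloTag 25R, 52R and 70R, against 27.0, 21.8 and 25.2 CPM in cells without. Across Dendra2 25R, 52R and 70R it had 27.3, 13.9 and 29.4 CPM with CD70 UMIs, against 20.5, 8.25 and 12.9 CPM without. The TNFSF9 difference was 0.82 ± 0.07 on the log2 scale (edgeR adjusted p 1.01e-18).

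LUM, the matrix proteoglycan lumican, rose by 0.86 ± 0.06 (SE), with log2 differences between 0.55 and 1.10 over the libraries. IGFBP7, a secreted binding protein of insulin-like growth factors, rose by 0.62 ± 0.04, and MFAP5, a microfibril protein, by 0.54 ± 0.03. CTSL, the lysosomal protease cathepsin L, rose by 0.75 ± 0.12, and MYLK, myosin light chain kinase, by 0.56 ± 0.07. SUGCT, a mitochondrial CoA transferase, rose by 0.69 ± 0.09, and CDA, cytidine deaminase, by 0.57 ± 0.08. The noncoding genes AP000527.1, AL589182.1 and UNC5B-AS1 each rose by 0.81. The sources used here do not say whether counting used strand, so antisense genes cannot be told from their partners. All these genes were higher in 6 of 6 libraries.

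The genes that fell were less changed. AL606500.1 fell by 0.53 on the log2 scale, NES, the intermediate filament nestin, by 0.43, and HIST1H1A, a linker histone, by 0.37. C21orf58 fell by 0.35, FKBP5, a glucocorticoid-induced chaperone partner, by 0.34, PSAT1, an enzyme of serine synthesis, by 0.33, and SETD3, a histidine methyltransferase of actin, by 0.32. CRABP2, a retinoic acid carrier, also fell by 0.32.

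**Figure D5:**
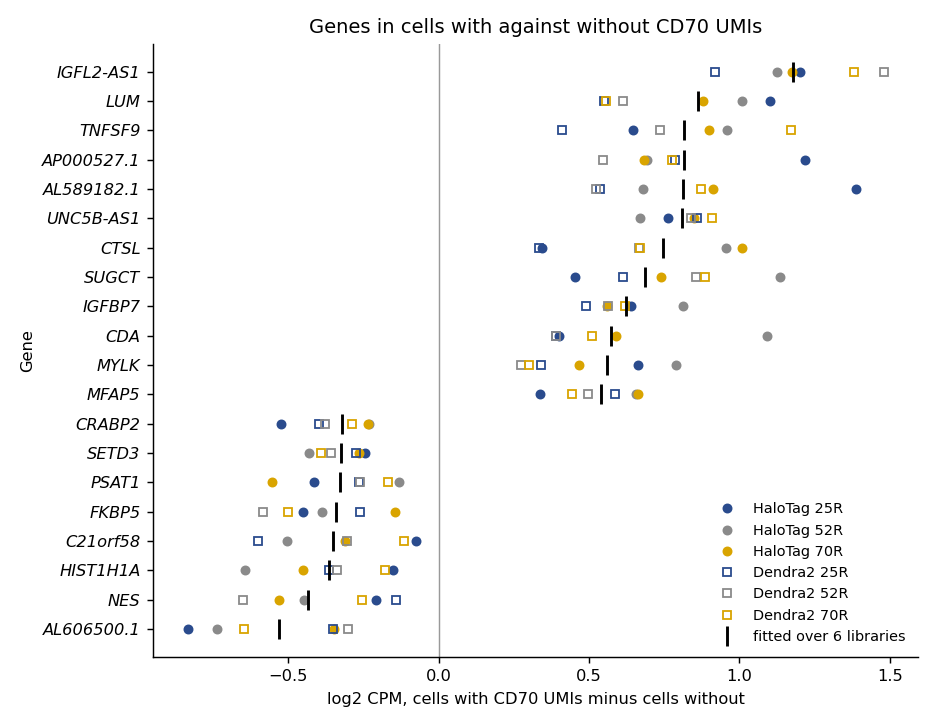
Log2 CPM in cells with CD70 UMIs minus cells without, for the 12 named genes that rose and the 8 that fell, in each of the 6 libraries (points) and fitted over them (bars). All points of the upper 12 genes lie right of 0 and all of the lower 8 left of it.

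Of the p53 target genes 21 of 26 tested rose in cells with CD70 UMIs and 0 fell, with all 26 above 0 and a median log2 difference of 0.26, against 0.00 over all genes, where 11.4% were called. The count was 21 with library totals as well. FAS rose by 0.44 ± 0.07 on the log2 scale (SE), TP53INP1, a stress-induced autophagy protein, by 0.46 ± 0.10, and BBC3, the proapoptotic PUMA, by 0.40 ± 0.07. GDF15 rose by 0.78 ± 0.16, though in 5 of 6 libraries only. CDKN1A, the p21 inhibitor of cyclin-dependent kinases, named after its values were seen, had 224, 104 and 137 CPM in cells with CD70 UMIs from HaloTag 25R, 52R and 70R, against 184, 85.1 and 91.7 CPM in cells without. Across Dendra2 25R, 52R and 70R CDKN1A had 137, 134 and 133 CPM with CD70 UMIs, against 118, 82.3 and 103 CPM without.

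Proliferation genes went the other way. Of 54 tested G2/M genes 39 fell and 0 rose, with all 54 below 0 and a median of -0.17, where 4.80% of all genes fell. TACC3, a spindle protein, fell by 0.27, NDC80, a kinetochore protein, by 0.25, CDC20, an activator of the anaphase-promoting complex, by 0.25, and MKI67, the Ki-67 proliferation antigen, by 0.25. Of 43 tested S phase genes 31 fell and 0 rose, with a median of -0.21. The 31 became 20 without HaloTag 70R, 22 without HaloTag 52R and 16 with DESeq2. CCNE2, a cyclin of the G1 to S step, fell by 0.33, BRIP1, a DNA repair helicase, by 0.32, CDCA7 by 0.28 and RAD51AP1, a recombination factor, by 0.27. How far cell cycle phase enters the other lists was not tested.

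Immune and NF-κB lists moved in part, where 6.62% of all genes rose and 4.80% fell. Of 3 tested TNF ligands 2 rose, TNFSF9 and LTB, the second by 0.61 ± 0.17 at a mean of 3.82 CPM. The LTB call was lost with cells thinned to 8000 UMIs (log2 0.28, edgeR adjusted p 0.743), and 1 ligand was called without HaloTag 70R, without Dendra2 25R and with DESeq2. Of 13 tested TNF receptors 2 rose, FAS and TNFRSF10B, a TRAIL receptor that is also a p53 target (0.26 ± 0.08), with 1 called without HaloTag 52R, without HaloTag 70R and with DESeq2. Of 12 tested T and natural killer cell ligands 3 rose: TNFSF9, HLA-E, a ligand of the NKG2A receptor, by 0.24 ± 0.05, and CD47, an inhibitory signal to phagocytes, by 0.16 ± 0.05. The CD47 call was lost at 8000 UMIs (log2 0.05, edgeR adjusted p 0.585), and 2 of that list were called without HaloTag 70R and without Dendra2 25R. Of 22 tested NF-κB target genes 5 rose and 0 fell, with 18 above 0 and a median of 0.16, and 10 rose at 8000 UMIs. Among them were BCL2L1, an inhibitor of apoptosis, at 0.23 ± 0.05, RELB, an NF-κB subunit, at 0.21 ± 0.07, SOD2, the mitochondrial superoxide dismutase, at 0.19 ± 0.04, and IER3 at 0.17 ± 0.03. Of 23 tested genes of the CD27 and NF-κB pathway 2 rose, NFKBIE and RELB, which is 8.70% of them and near the share of all genes. With library totals or without Dendra2 25R that list had 0 risen and 1 fallen, and with HaloTag 52R, HaloTag 70R or Dendra2 52R left out it had 1 risen.

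The remaining lists were mixed, beside 6.62% of all genes higher and 4.80% lower. Of 16 tested immediate early genes 4 rose and 1 fell, led by JUNB (0.39 ± 0.06) and FOS (0.24 ± 0.06), with KLF2 falling by 0.37. Without HaloTag 70R or with DESeq2 2 of them rose. Of 21 tested mesenchymal transition genes 4 rose, among them MMP2, a gelatinase (0.27 ± 0.06), and 2 rose without HaloTag 70R or Dendra2 70R. Of 10 tested contractile genes 3 rose, among them MYL9, a myosin light chain (0.14 ± 0.03), and TPM2, a tropomyosin (0.08 ± 0.02), and 2 rose without HaloTag 70R. Of 11 tested osteoblast and mesenchymal markers 2 rose, LUM and SPARC, and 1 rose with library totals and when HaloTag 25R, HaloTag 70R or Dendra2 70R was left out. Of 21 HIF targets 1 was called higher, BNIP3L, and 1 lower, ENO1, 4.76% each and so near the share of all genes. The ENO1 call was lost at 8000 UMIs and when HaloTag 52R, HaloTag 70R or Dendra2 70R was left out. Of 8 epithelial markers 1 was called higher, KRT8, and 1 lower, OCLN. With library totals, without HaloTag 70R and without Dendra2 52R that list had 0 higher and 1 lower, at 8000 UMIs 1 higher and 0 lower, and without HaloTag 52R none. Neither of 2 tested leukocyte markers was called.

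Of the neighbours of CD70 12 could be tested between the cells, and 4 rose with 0 falling, where 6.62% of all genes rose and 4.80% fell. Besides TNFSF9 these were ALKBH7, a mitochondrial dioxygenase 208 kb away (0.30 ± 0.04, edgeR adjusted p 8.51e-10), GPR108 at 126 kb (0.28 ± 0.08, edgeR adjusted p 0.0137) and SLC25A23, a mitochondrial carrier at 118 kb (0.22 ± 0.05, edgeR adjusted p 0.0015). Each was higher in 6 of 6 libraries. ALKBH7 overlaps PSPN, and SLC25A23 overlaps CRB3, on the other strand.

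Cell by cell, correlations with CD70 were weak throughout. Over thinned cells, 14 of 4824 genes had a mean Pearson r over the 6 libraries above 0.1 and 15 one below -0.1, and the median was -0.01. RPS27L, a ribosomal protein-like p53 target, had the highest mean r at 0.156 (0.110 to 0.215 over libraries). After it came FTH1, the ferritin heavy chain, at 0.149, NEAT1, a nuclear noncoding RNA, at 0.140, AP000527.1 at 0.126 and IGFBP7 at 0.121. SUGCT had 0.119, RPS28, a ribosomal protein, 0.117 and EEF1A1, an elongation factor, 0.117. FTH1, RPS28 and EEF1A1 have processed copies elsewhere in the genome, so their counts are uncertain.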

How the data were processed

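Single-cell RNA was measured in 6 libraries (9 samples in the labels, since each HaloTag library had 2 sequencing runs, merged in the files). The deposited counts are UMIs per gene and cell, written by Cell Ranger 6.1.2 for the authors, per the file headers, on GRCh38, per the submitters' processing notes. The authors' deposited kinetic tables give, per gene and library, a mean, K and a squared coefficient of variation with limits, fitted with a beta-Poisson model, per their row names, in the authors' own units and unscaled for depth.

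Barcodes under 500 genes or over 20% mitochondrial UMIs, 2.01% to 3.03% per library, were removed. No doublet caller was run. Tag sequences were left out of totals. Counts were summed per library, filtered with filterByExpr, scaled by trimmed-mean (TMM) factors and then fitted with edgeR 4.0.16 quasi-likelihood (tag plus CTD length, 2 residual degrees of freedom, Benjamini-Hochberg over all genes). Called means an adjusted p under 0.05. DESeq2 1.42.0 was an alternative. Depth was 52553686 to 58442223 UMIs per library. Intervals and floors cover counting error only. Levels per library are TMM-scaled CPM, except those of cell type markers and the limits on CD27 and on ligands under 1 CPM, which used library totals. Levels of thinned cells had no TMM factor except in the comparison of cells with and without CD70 UMIs. Gene positions are from GENCODE v44 on GRCh38. Scripts were tested on simulated data.

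CD70 and all gene lists were chosen with earlier results of these data known. Named genes were CD70, CD27 and neighbours within 250 kb; up to 4 members per list with the largest change at a mean of at least 10 CPM, called ones first; 5 most alike and 5 most opposed over libraries; up to 12 higher and 8 lower called genes in cells with against without CD70 UMIs at 20 CPM or more with 1 direction in all libraries; and 8 genes by mean r over cells. A few genes that this rule names are not reported here.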

Additional observations from a re-analysis of the deposited data

Results flagged for a closer look

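In 2 of 28 groups of 6 libraries checked, 1 library lay far from the other 5, and chance flags about 1 in 20 such groups. AP000527.1, in cells with against without CD70 UMIs, had a log2 difference of 1.2163 in HaloTag 25R, with a gap of 0.644 of the whole range to the nearest library. CDA had a log2 difference of 1.0908 in HaloTag 52R, with a gap of 0.716 of the range. Both genes were higher in cells with CD70 UMIs in the other 5 libraries too.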

How the results depend on the processing

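Each CTD ratio of CD70 kept its direction under all 5 alternatives, and 17 of 20 values stayed within the counting interval. The HaloTag 25R over 52R log2 ratio was 1.63 with library totals and 1.62 as the mean of cell CPM, and the HaloTag 70R over 52R ratio 0.45 as that mean. The HaloTag over Dendra2 log2 change of CD70 passed the threshold with library totals (0.96), without a filter on low counts (0.84) and with DESeq2 (0.85), and was 0.84 to 0.90 without 1 library.

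Shares of cells depend on depth. With 8000 UMIs they were 79.5%, 39.0% and 50.4% in HaloTag 25R, 52R and 70R and 56.6%, 26.0% and 35.4% in Dendra2 25R, 52R and 70R. Without thinning they were 90.3%, 51.1% and 57.6% in HaloTag and 71.7%, 41.9% and 57.4% in Dendra2. With at least 2 UMIs they were 38.2%, 10.3% and 15.0% in HaloTag and 16.9%, 3.50% and 6.39% in Dendra2. The contrast by mitochondrial share turned to 0.034775 with 8000 UMIs.

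Without a filter on low counts, 1 of 344 listed genes was called in 25R against 52R, where 106 of all 29744 genes were. In HaloTag against Dendra2 14 of the 344 were called, where 408 of all 29744 were. DESeq2, also without that filter, had 344 listed genes between libraries and 337 between cells. It called 20 (25R against 52R), 2 (70R against 52R), 10 (70R against 25R), 30 (tags) and 75 (cells with against without CD70 UMIs). The shares of all genes that DESeq2 called there were 1.71%, 0.215%, 1.59%, 3.85% and 2.45%. Without 1 library the counts were 0 to 12, 0 to 0, 0 to 12, 0 to 4 and 81 to 115. The listed tag calls fell to 0 without HaloTag 52R, HaloTag 70R, Dendra2 52R or Dendra2 70R. Between cells, DESeq2 called 671 genes in all, 666 of them among the 1567, and 988 to 1412 were called without 1 library, fewest without HaloTag 70R. At 8000 UMIs 1661 were called, 1052 of them among the 1567. With library totals 1632 were called, 1283 of them among the 1567.

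The pairing of the 2 sums of a library comes from the design. Without the replicate block edgeR called 0 genes between cells, with 152 at an unadjusted p under 0.05, and 0 listed genes. Between libraries the fit of tag plus CTD length already compares the tags within each length, and replicate numbers could not serve as a further block, since they are sequencing runs that the files merge. The causes of these changes were not tested. With 1 library per genotype the fits rest on 2 residual degrees of freedom, and a lone library is assumed to vary like the others when 1 is left out.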
